A study of Mus musculus with 9 samples.

Results

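The RNA levels of 10 genes of the immunoproteasome and of class I antigen processing were followed in NRVMs, primary heart muscle cells taken from the ventricles of neonatal rats. The genes are *Psmb8*, *Psmb9* and *Psmb10* (catalytic subunits), *Psme1* and *Psme2* (PA28 activator), *Tap1*, *Tap2* and *Tapbp* (transport and loading), *B2m* (class I light chain) and *Erap1* (ER aminopeptidase). They were picked out of the tables by symbol, and all 10 were found among the 15095 genes with reads in the tables. The cells came from Sprague Dawley rats of 1 to 2 days of age, although an organism field of the labels names mouse. They were cultured for 48 h and infected with an adenovirus at an MOI of 50, and were collected 48 h later. The 3 groups, with 3 libraries each, received LacZ (a bacterial enzyme, the control), mouse Nrf1 or mouse Nrf2, a pair of related stress-responsive transcription factors. The CMV promoter drove each transgene in a vector that also carried a red fluorescent protein. This promoter is not specific to cardiomyocytes. No label says that the libraries of a group came from separate cultures, and the p-values then measure only the spread between these libraries, which may be technical.

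Proteasomes cut cellular proteins into peptides, and in cells exposed to interferon a variant called the immunoproteasome takes over part of this work. In that variant, inducible catalytic subunits stand in for the constitutive ones, and the PA28 activator can cap the complex. The peptides are carried into the endoplasmic reticulum (ER) by the TAP transporter, trimmed there by aminopeptidases and loaded with the help of tapasin onto class I molecules, which consist of a heavy chain and the light chain beta-2-microglobulin. This machinery is found in most nucleated cells and is known for a low baseline in heart muscle cells and for induction by interferon.

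The deposited values were group means of normalized read counts, from which the whole reads of every library were solved. The libraries held 7874461 to 9347199 reads in LacZ, 8533201 to 10275000 in Nrf1 and 10149749 to 11905658 in Nrf2 samples. Among the members *Tap2* had the fewest reads, 2 to 22 per library. Because a mean carries no sample number, libraries are listed from the shallowest to the deepest and not by the numbers in the labels. Levels are given as CPM, the reads of a gene scaled to the total of its library and not corrected for gene length. Libraries of a group differed by more than counting noise (chi-square per gene 1.51 to 5.33), so none was a copy of another. *Nfe2l2*, the gene of Nrf2, stood at 7549 ± 627 CPM in Nrf2 samples (SD, n = 3), 371 ± 3.05 in LacZ and 293 ± 3.43 in Nrf1 samples, while *Nfe2l1*, the gene of Nrf1, was not analysed here. Cardiomyocyte markers summed to at least 17798 CPM in every library and leukocyte markers to at most 438. Fibroblast markers were not rare, with sums of 13055 to 13938 CPM in LacZ libraries. The LacZ library of middle depth stood apart in its leukocyte markers, 438 CPM against 298 and 304 in the other LacZ libraries. Of the 10 members, 7 had their highest LacZ value in that library. Among LacZ libraries it also had the highest fibroblast sum, 13938 CPM against 13252 and 13055. Its cardiomyocyte sum was the lowest of the LacZ libraries, 19343 CPM against 20637 and 22153. Results are therefore also given without that library.

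In NRVMs with Nrf1, 7 of the 10 genes fell compared with LacZ and 0 rose. A gene was called where limma gave a Benjamini-Hochberg adjusted p under 0.05 over all genes tested and a fold change above 1.5. By this rule 16.5% of 11202 genes were called lower and 11.3% higher. The fitted log2 fold changes of the 10 genes ran from -2.58 to -0.31 with a median of -1.30, where the median over all genes was 0.01. With Nrf2, 7 of the 10 genes also fell and 0 rose, beside 9.34% of 11386 genes called lower and 8.79% higher, or 11.9% and 7.08% when libraries were scaled by their totals. The log2 fold changes with Nrf2 ran from -1.60 to 0.05 with a median of -0.75. Both comparisons use the same 3 LacZ libraries and are not independent. Without the LacZ library that stood apart, 8 genes were called lower with Nrf1, *Psme2* being added, and 7 with Nrf2, with *Psme2* in and *Tap2* out. Over all genes, 15.9% of 11172 were then called lower with Nrf1 and 8.57% of 11371 with Nrf2. In bulk RNA, fewer cells of a type and less RNA per cell cannot be told apart, and markers of other cell types also fell.

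Every Nrf1 library lay below every LacZ library for 9 of the 10 genes, all but *Psme2*, and the same held for Nrf2 against LacZ for all but *Psme1*. Such a separation was common, with 39.0% of all tested genes below LacZ in Nrf1 and 39.2% in Nrf2 samples. In the direct comparison of Nrf2 with Nrf1, 9 of the genes reached the level needed for a test, 3 of them were higher with Nrf2 and 0 were lower, beside 10.7% of 11306 genes called higher and 4.58% called lower. The median log2 fold change of Nrf2 over Nrf1 was 0.43. All Nrf2 libraries lay above all Nrf1 libraries for 7 of the 10 genes (29.8% of all genes) and below them for 1, *Tapbp* (34.4% of all genes).

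The catalytic subunits of the immunoproteasome fell with each factor, and *Psmb8* fell most. *Psmb8*, which takes the place of the chymotrypsin-like subunit, was read at 12.8, 16.4 and 15.4 CPM in the LacZ libraries, at 2.11, 3.39 and 1.75 with Nrf1 and at 4.83, 3.89 and 5.12 with Nrf2. The 3 groups did not overlap and were ordered LacZ, Nrf2, Nrf1. The log2 fold change was -2.58 (SE 0.21, adjusted p = 4.03e-08) with Nrf1 and -1.60 (SE 0.15, adjusted p = 6.35e-07) with Nrf2. Nrf2 samples were higher than Nrf1 samples by 0.98 (SE 0.24, adjusted p = 0.00172).

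*Psmb9*, which takes the place of the caspase-like subunit, showed the same order with little spread. It stood at 20.6, 21.4 and 20.5 CPM in LacZ, 5.86, 6.49 and 6.52 in Nrf1 and 9.66, 10.9 and 9.995 in Nrf2 libraries. Its mean in Nrf1 samples was 31.5% of the LacZ mean (log2 fold change -1.66, SE 0.11, adjusted p = 3.32e-09) and in Nrf2 samples 51.8% (log2 fold change -0.95, SE 0.10, adjusted p = 1.68e-06). The step from Nrf1 to Nrf2 was 0.70 on the log2 scale (SE 0.12, adjusted p = 9.97e-05).

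*Psmb10*, which takes the place of the trypsin-like subunit, fell to a similar level with each factor. The LacZ libraries held 19.0, 19.3 and 22.4 CPM, the Nrf1 libraries 12.9, 10.6 and 11.6 and the Nrf2 libraries 11.7, 9.995 and 11.3. Log2 fold changes over LacZ were -0.73 (SE 0.11, adjusted p = 3.03e-05) with Nrf1 and -0.79 (SE 0.11, adjusted p = 2.51e-05) with Nrf2. Nrf1 and Nrf2 libraries overlapped, and Nrf2 over Nrf1 gave -0.07 (SE 0.11, adjusted p = 0.609), which did not pass the test and does not show that the levels were equal.

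**Figure D1:**
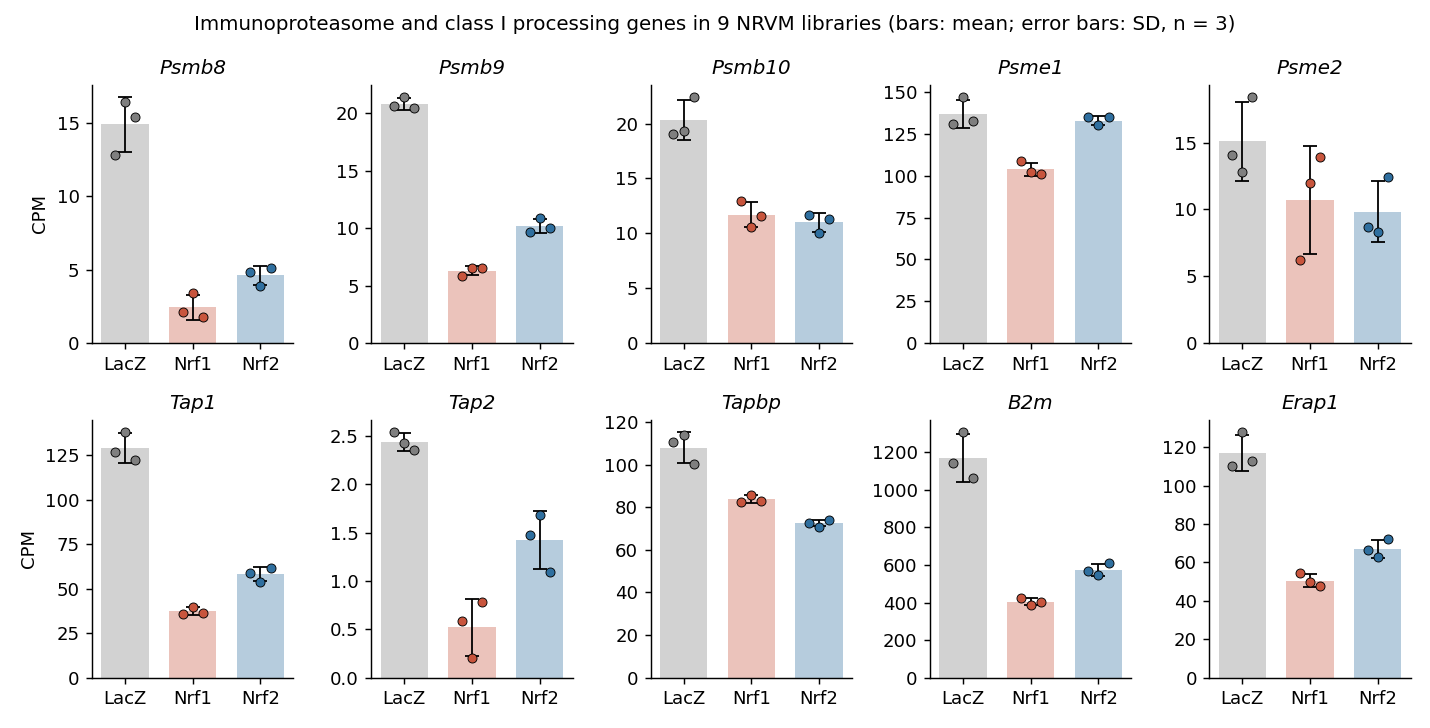
CPM (y axis, linear from 0, one panel per gene) in the 3 libraries of LacZ, Nrf1 and Nrf2 samples, with bars for the mean and error bars for the SD (n = 3). *Psmb8*, *Psmb9*, *Tap1*, *Tap2*, *B2m* and *Erap1* are ordered LacZ, Nrf2, Nrf1 with no overlap of groups, while *Psme2* libraries spread widely, from 6.21 to 13.9 with Nrf1. The share of all genes with this order was not counted.

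The genes of the PA28 activator moved less than the catalytic subunits, and neither was called against LacZ. *Psme1* encodes the alpha subunit of PA28 and was read at 131, 147 and 133 CPM in LacZ, 109, 102 and 101 in Nrf1 and 135, 130.2 and 135 in Nrf2 libraries. With Nrf1 it was lower in every library, by an amount under the fold cutoff (log2 fold change -0.33, SE 0.05, adjusted p = 2.25e-05). With Nrf2 the groups overlapped (log2 fold change 0.05, SE 0.05, adjusted p = 0.396), and the value turned to -0.04 when libraries were scaled by their totals. Nrf2 samples were above Nrf1 samples by 0.37 (SE 0.04, adjusted p = 2.40e-07), also under the fold cutoff.

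*Psme2*, the beta subunit, spread widely between libraries, with a coefficient of variation of 19.5% in LacZ, 37.5% in Nrf1 and 23.3% in Nrf2 samples. It was read at 14.1, 12.8 and 18.4 CPM in LacZ, 6.21, 12.0 and 13.9 in Nrf1 and 8.67, 8.31 and 12.4 in Nrf2 libraries. In each group the deepest library was the highest. The log2 fold change was -0.49 with Nrf1 (SE 0.23, adjusted p = 0.0669), where a LacZ and an Nrf1 library overlapped, and -0.54 with Nrf2 (SE 0.17, adjusted p = 0.0133), under the fold cutoff. Single libraries decided whether *Psme2* was called. Without the LacZ library of middle depth its log2 fold changes with Nrf1 and Nrf2 were -0.61 (adjusted p = 0.0313) and -0.66 (adjusted p = 0.00544), past both cutoffs. It was also called with Nrf1 without the Nrf1 library of middle depth (-0.62, adjusted p = 0.0495) or the deepest one (-0.72, adjusted p = 0.0164), and with Nrf2 without the deepest Nrf2 library (-0.72, adjusted p = 0.00236). Other libraries pulled the other way. With Nrf1 the value shrank to -0.14 (adjusted p = 0.444) without the shallowest Nrf1 library and to -0.34 (adjusted p = 0.238) without the deepest LacZ library, and with Nrf2 to -0.38 (adjusted p = 0.0682) without the latter. Scaling by library totals gave a call with Nrf2 (-0.63, adjusted p = 0.00564).

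Of the peptide transporter, *Tap1* was measured precisely. *Tap1* encodes a chain of the ABC transporter that brings peptides into the ER, and it stood at 127, 138 and 122 CPM in LacZ, 35.7, 39.8 and 36.3 in Nrf1 and 58.8, 54.0 and 61.6 in Nrf2 libraries. Its mean was 30.2% of the LacZ mean with Nrf1 (log2 fold change -1.73, SE 0.06, adjusted p = 1.30e-12) and 47.8% with Nrf2 (-1.07, SE 0.06, adjusted p = 2.74e-09). Nrf2 samples were higher than Nrf1 samples by 0.65 (SE 0.06, adjusted p = 7.63e-08).

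*Tap2*, the partner chain, had few reads. There were 20, 20 and 22 reads in the LacZ libraries, 5, 2 and 8 in the Nrf1 libraries and 15, 19 and 13 in the Nrf2 libraries, which is 2.44 ± 0.0934, 0.521 ± 0.295 and 1.42 ± 0.299 CPM (SD, n = 3). The groups did not overlap, and *Tap2* fell with Nrf1 (log2 fold change -2.22, SE 0.43, adjusted p = 3.20e-04). The decrease with Nrf2 passed the cutoffs only narrowly (log2 fold change -0.70, SE 0.27, adjusted p = 0.0398). This call was lost with no filter on low values (adjusted p = 0.0579), in a fit of all 9 libraries (adjusted p = 0.102) and on leaving out any 1 library except the Nrf2 library of middle depth (adjusted p 0.0628 to 0.146). In the table of Nrf1 and Nrf2 its mean was just under the level needed for a test.

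*Tapbp* encodes tapasin, which bridges the transporter and the empty class I molecule, and it was the member with a level below Nrf1 in every Nrf2 library. Its values were 110.5, 114 and 100.2 CPM in LacZ, 82.3, 85.9 and 83.1 in Nrf1 and 72.8, 70.9 and 74.0 in Nrf2 libraries. No group overlapped another, but no change passed the fold cutoff. The log2 fold changes were -0.31 with Nrf1 (SE 0.05, adjusted p = 8.83e-05), -0.49 with Nrf2 (SE 0.05, adjusted p = 2.58e-06) and -0.19 for Nrf2 over Nrf1 (SE 0.04, adjusted p = 9.06e-04).

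*B2m*, the light chain shared by class I molecules, fell with each factor. The CPM values were 1141, 1308 and 1061 in LacZ, 424, 389 and 402 in Nrf1 and 567, 547 and 608 in Nrf2 libraries. Nrf1 samples kept 36.2% of the LacZ mean (log2 fold change -1.46, SE 0.05, adjusted p = 2.88e-12) and Nrf2 samples 52.1% (log2 fold change -0.94, SE 0.06, adjusted p = 9.76e-09). The groups were ordered LacZ, Nrf2, Nrf1 without overlap. Nrf2 over Nrf1 gave 0.52 (SE 0.04, adjusted p = 8.00e-10), under the fold cutoff. According to the methods, duplicate reads were removed from these single-end libraries before counting. Such removal can lower the values of highly expressed genes. The LacZ libraries still held 8988 to 10750 reads of *B2m*, and the effect of the removal on this gene was not tested.

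*Erap1*, the aminopeptidase that trims peptides in the ER, followed the same order. It was read at 110.5, 128 and 113 CPM in LacZ, 54.3, 49.6 and 47.8 in Nrf1 and 66.5, 63.0 and 72.2 in Nrf2 libraries. The log2 fold change was -1.14 with Nrf1 (SE 0.06, adjusted p = 2.46e-10) and -0.71 with Nrf2 (SE 0.06, adjusted p = 3.38e-07). Nrf2 over Nrf1 was 0.43 (SE 0.06, adjusted p = 8.76e-06), under the fold cutoff.

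**Figure D2:**
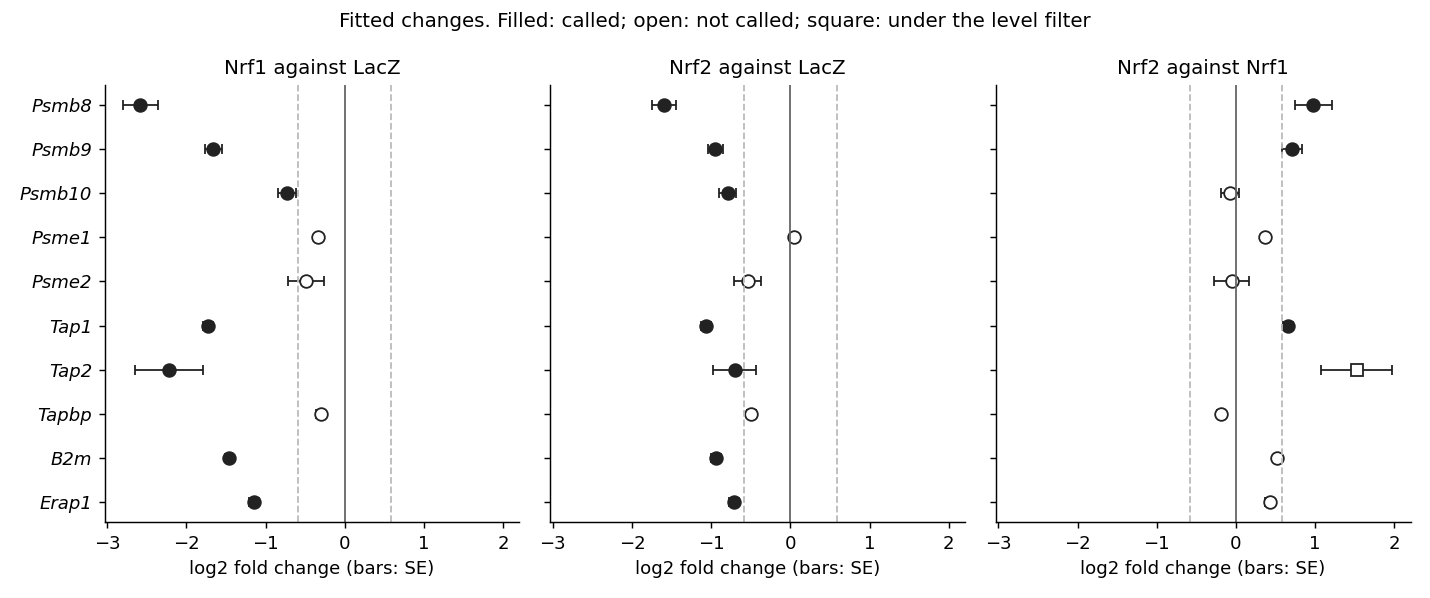
Fitted log2 fold change (x axis) of each of the 10 genes with its SE in the 3 comparisons, where filled points passed both cutoffs, open circles did not, the open square (*Tap2*) was below the level needed for a test and dashed lines mark a fold of 1.5. With Nrf1 and with Nrf2, 7 points are filled on the left of 0, and in Nrf2 over Nrf1 the filled points are *Psmb8*, *Psmb9* and *Tap1*, at 0.98, 0.70 and 0.65.

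In the mouse RefSeq annotation (GRCm38.p6), *Psmb9*, *Tap1*, *Psmb8* and *Tap2* follow each other directly among protein-coding genes, between the class II genes *H2-DMb1* and *H2-Ob*. The rat positions were not analysed here. These 4 neighbours had the lowest log2 fold changes of the 10 genes with Nrf1, from -2.58 to -1.66. With Nrf2 they ran from -1.60 to -0.70, and *Psmb10*, *B2m* and *Erap1* lay within that range.

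Each inducible catalytic subunit was then set against the constitutive subunit whose place it takes, as reads per 100 reads of that partner in the same library. This ratio is free of library scaling, but its size also depends on the lengths of the transcripts, so it was compared between groups only. *Psmb8* per 100 reads of *Psmb5* was 9.28, 11.8 and 10.5 in LacZ, 0.855, 1.41 and 0.709 in Nrf1 and 2.58, 2.22 and 2.97 in Nrf2 libraries. *Psmb9* per 100 reads of *Psmb6* was 27.2, 34.8 and 32.3 in LacZ, 3.35, 3.81 and 3.41 in Nrf1 and 11.2, 12.7 and 11.8 in Nrf2 libraries. *Psmb10* per 100 reads of *Psmb7* was 11.7, 12.6 and 12.6 in LacZ, 3.90, 3.08 and 3.29 in Nrf1 and 6.58, 5.73 and 6.55 in Nrf2 libraries. In all 3 pairs the groups were ordered LacZ, Nrf2, Nrf1 without overlap.

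With Nrf1 these ratios were 11.03-fold, 8.90-fold and 3.61-fold lower than in LacZ samples, and with Nrf2 4.07-fold, 2.64-fold and 1.96-fold lower. The exact permutation test (two-sided) gave p = 0.1 for every pair and comparison, the smallest value that 3 against 3 libraries allow, so the design cannot reach p under 0.05. The partners themselves rose with Nrf1. On the log2 scale *Psmb5* changed by 0.85 (SE 0.04, adjusted p = 5.52e-11), *Psmb6* by 1.49 (SE 0.07, adjusted p = 3.84e-11) and *Psmb7* by 1.12 (SE 0.05, adjusted p = 3.22e-11). With Nrf2 their log2 fold changes were 0.42, 0.45 and 0.17, all under the fold cutoff. *Psmb10*, whose CPM overlapped between Nrf1 and Nrf2 samples, had a lower ratio in Nrf1 samples beside a change of its partner *Psmb7*, for which Nrf2 over Nrf1 gave -0.95 on the log2 scale (adjusted p = 3.70e-14).

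**Figure D3:**
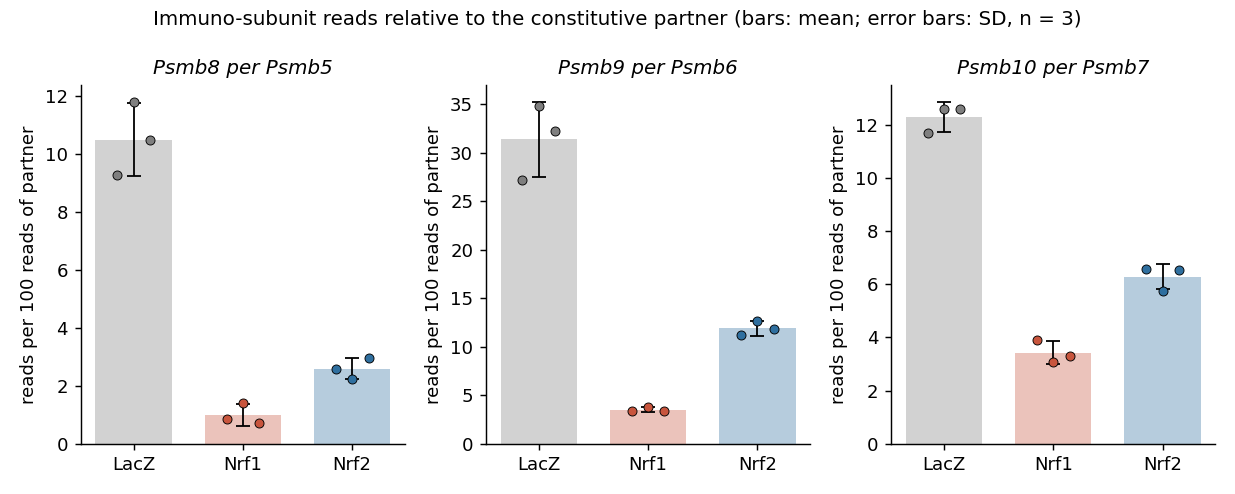
Reads of each inducible subunit per 100 reads of its constitutive partner (y axis, linear from 0) in the 3 libraries of each group, with bars for the mean and error bars for the SD (n = 3). The means were 10.5, 0.992 and 2.59 for *Psmb8* per *Psmb5*, 31.4, 3.52 and 11.9 for *Psmb9* per *Psmb6* and 12.3, 3.42 and 6.29 for *Psmb10* per *Psmb7* in LacZ, Nrf1 and Nrf2 samples.

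Other proteasome regulators went the opposite way to the immunoproteasome with Nrf1. *Psme4* (the PA200 activator), *Psmf1* (the PI31 regulator) and *Pomp* (an assembly chaperone of the core particle) rose. The change was 0.84 on the log2 scale for *Psme4* (adjusted p = 2.48e-12), 0.72 for *Psmf1* (adjusted p = 1.96e-08) and 0.78 for *Pomp* (adjusted p = 6.66e-06). *Psme3* (PA28 gamma, the nuclear relative of *Psme1* and *Psme2*) was at 0.42 (adjusted p = 1.82e-07), under the fold cutoff. With Nrf2, 0 of these 4 genes were called, and their log2 fold changes ran from 0.23 to 0.50.

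Class I heavy chains, the partners of *B2m*, fell with Nrf1 in most cases. Of 40 heavy chain and related genes with reads, 24 were tested with Nrf1, of which 19 fell and 1 rose, with a median log2 fold change of -1.32. Of 25 tested with Nrf2, 9 fell and 1 rose, with a median of -0.49, and without the LacZ library that stood apart 7 of 24 fell. In Nrf2 over Nrf1, 17 of 25 were higher and 0 were lower. Among heavy chains with a mean normalized count of at least 100 in LacZ or Nrf1 samples, a level that *RT1-T24-3*, *RT1-S3* and *RT1-N3* reached in LacZ samples only, these 3 had the steepest decreases, with log2 fold changes of -3.84, -3.24 and -1.80 with Nrf1 and -1.80, -1.76 and -1.07 with Nrf2. Of the less expressed chains, *RT1-CE14* (-2.48), *RT1-CE4* (-2.33) and *RT1-A3* (-1.81), named after their values were seen, also fell further with Nrf1 than *RT1-N3*. *RT1-S3*, for example, went from 84.1, 93.3 and 71.3 CPM in LacZ libraries to 9.26, 8.58 and 7.20 with Nrf1 and 21.5, 23.6 and 23.4 with Nrf2. The RT1 genes are close paralogs, so reads can be split between them and single values are uncertain.

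Other factors that fold and load class I molecules, most of which also serve other proteins, stayed nearer to 0. Of *Calr*, *Canx*, *Pdia3*, *Tapbpl* and *Uggt1*, 0 were called with Nrf1, with log2 fold changes from -0.48 to 0.00. *Tapbpl*, a relative of tapasin that edits the bound peptide, fell with Nrf2 (-0.60, SE 0.11, adjusted p = 2.51e-04), just past the fold cutoff. It was just short of that cutoff without the LacZ library of middle depth (-0.58, adjusted p = 9.21e-04) or the Nrf2 library of middle depth (-0.57, adjusted p = 0.00171). The log2 fold changes of *Calr*, *Canx*, *Pdia3* and *Uggt1* with Nrf2 were -0.07, -0.03, 0.01 and -0.28, and the sign for *Pdia3* turned under scaling by library totals and on leaving out single libraries. Of 8 further peptidases that trim peptides, 1 was called with Nrf1, *Blmh* (bleomycin hydrolase), which rose by 1.10 on the log2 scale (SE 0.04, adjusted p = 2.87e-12). With Nrf2, 1 was called, *Thop1* (thimet oligopeptidase), named after its values were seen, which rose by 0.87 (SE 0.07, adjusted p = 1.69e-07). *Npepps* and *Nrd1* had log2 fold changes of 0.41 and 0.31 with Nrf1 and 0.27 and 0.48 with Nrf2, all under the fold cutoff.

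Of 12 tested regulators of class I genes, 5 fell and 1 rose with Nrf1, and 3 fell and 0 rose with Nrf2. *Stat2* and *Irf9* encode transcription factors of the type I interferon response. *Stat2* stood at 203, 230.4 and 183 CPM in LacZ, 42.2, 40.2 and 42.04 in Nrf1 and 83.3, 94.2 and 98.2 in Nrf2 libraries, with no overlap of groups. *Stat2* changed by -2.24 with Nrf1 (SE 0.06, adjusted p = 1.64e-13) and by -1.07 with Nrf2 (SE 0.07, adjusted p = 2.54e-08), and *Irf9* by -2.33 and -1.04. With Nrf2 both lay above their Nrf1 level, by 1.16 and 1.28. *Ifngr1*, a chain of the interferon gamma receptor, fell with Nrf1 (-0.71, SE 0.07, adjusted p = 1.96e-07) and was at -0.21 with Nrf2 (SE 0.06, adjusted p = 0.00626), under the fold cutoff. *Irf1*, which activates class I and immunoproteasome genes, fell with Nrf1 (-0.69, SE 0.09, adjusted p = 5.19e-06) and was just under the fold cutoff with Nrf2 (-0.57, SE 0.09, adjusted p = 1.29e-04). It passed with Nrf2 without the deepest LacZ library (-0.67) or the shallowest or deepest Nrf2 library (-0.60 each). Re-centring on the median gene, scaling by library totals and a fit of all 9 libraries also made *Irf1* pass, with 4 regulators called lower with Nrf2. The remaining calls, named after their values were seen, were those of *Irf8*, a factor of myeloid cells, which fell with each factor (-1.71 and -1.04), and of *Rfxank*, a subunit of the RFX complex, which rose with Nrf1 (0.67, adjusted p = 0.00196). Without the LacZ library of middle depth, 6 of the 12 fell and 0 rose with Nrf1, *Rfxank* being at 0.50 (adjusted p = 0.00722). *Nlrc5*, the class I transactivator, was not analysed here.

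Genes induced by interferon outside antigen presentation had lower medians than the members. All 10 of the interferon response genes examined fell with Nrf1 and with Nrf2, with median log2 fold changes of -3.93 and -1.80, and in Nrf2 over Nrf1 all 10 were called higher (median 2.01). Over all tested genes, 16.5% were called lower with Nrf1, 9.34% lower with Nrf2 and 10.7% higher in Nrf2 over Nrf1. This list was chosen with earlier results of these data known, so its counts are a description only. *Mx2* (an antiviral GTPase), *Oas1a* (an RNA-sensing synthetase) and *Usp18* (an ISG15 protease) had log2 fold changes of -5.13, -4.67 and -4.43 with Nrf1 and -2.31, -2.01 and -1.69 with Nrf2. The LacZ library of middle depth was again the highest LacZ library for each of the 10 genes, with *Mx2* at 531 CPM against 416 and 401. Without that library the 10 genes were still called lower with each factor.

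**Figure D4:**
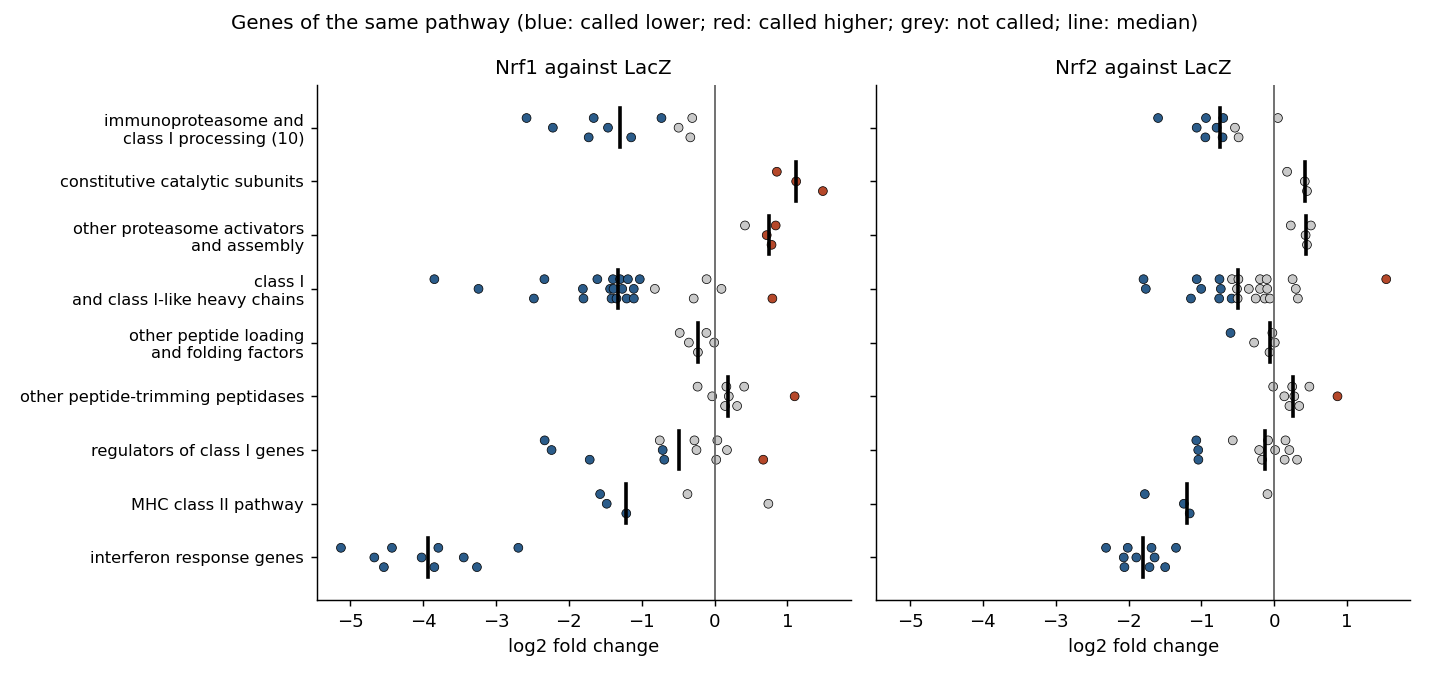
Log2 fold change (x axis) of every tested gene, one point per gene, in the 10 members and 8 lists of related genes with Nrf1 (left) and Nrf2 (right), blue for called lower, red for called higher, grey for neither and a black line for the median. The medians of the members lie at -1.30 and -0.75, those of the constitutive catalytic subunits at 1.12 and 0.42 and those of interferon response genes at -3.93 and -1.80.

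Markers of other cells in the culture moved with the groups. Of 17 tested leukocyte markers, 16 were lower with Nrf1 and 14 with Nrf2, and the 19 markers with reads summed to 298 to 438 CPM in LacZ, 156 to 163 in Nrf1 and 175 to 184 in Nrf2 libraries. Without the LacZ library that stood apart in these markers, 15 of 16 were lower and 1 higher with Nrf1, and 13 of 17 lower with Nrf2. The T cell marker *Cd3e* was at 0 in LacZ and Nrf1 libraries. Of 10 endothelial markers, 7 were lower with Nrf1 and 6 with Nrf2, with 1 higher, and their sums were 468 to 479 in LacZ, 274 to 279 in Nrf1 and 249 to 287 in Nrf2 libraries. Of 9 fibroblast markers, 9 were lower with Nrf1 and 7 with Nrf2. Their sums were 13055 to 13938 CPM in LacZ, 3202 to 3442 in Nrf1 and 6461 to 7001 in Nrf2 libraries. *Psmb8*, *Psmb9*, *Tap1*, *Tap2*, *B2m* and *Erap1* showed this order without overlap, while *Psmb10*, *Psme2* and *Tapbp* had their lowest mean with Nrf2. The leukocyte sums had the same order, so it is not particular to fibroblast markers. The share of all genes with this order of the groups was not counted, and separations between pairs of groups were common. Most of the fibroblast sum came from *Col1a1* and *Col3a1*, with means of 9827 and 2847 CPM in LacZ samples. In Nrf2 over Nrf1, 7 of the 9 were called higher and 1 lower, *Tcf21* (-0.94, adjusted p = 0.00253). The 11 cardiomyocyte markers summed to 19343 to 22153, 17798 to 18034 and 20696 to 21025 CPM. Of these 11, 5 were lower with Nrf1, namely *Myh7* (-1.07), *Myl2* (-0.997), *Tnni3* (-0.96), *Tnni1* (-0.93) and *Nppa* (-0.62), and 2 were higher, *Ryr2* (0.83) and *Actc1* (0.64). The median log2 fold change of the cardiomyocyte markers was -0.46 with Nrf1 and 0.23 with Nrf2, where 0 of the 11 were called, 3 were lower and 7 higher by the adjusted p alone. The part of these other cells in the changes of the 10 genes was not tested.

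**Figure D5:**
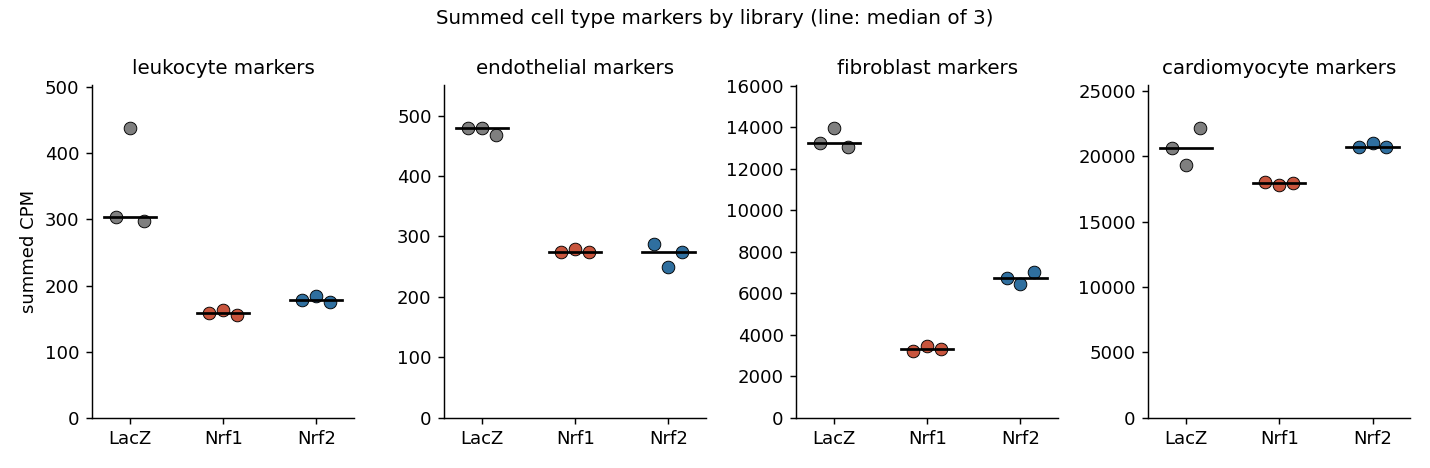
Summed CPM (y axis, linear from 0) of the leukocyte, endothelial, fibroblast and cardiomyocyte markers in each library, with a line at the median of 3. Leukocyte, endothelial and fibroblast sums are lower in every Nrf1 and Nrf2 library than in any LacZ library, and 1 LacZ library lies at 438 for leukocyte markers.

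Among 8289 other genes with a LacZ mean of at least 100, those whose pair of log2 fold changes with Nrf1 and Nrf2 lay nearest to the median pair of the members (-1.30 and -0.75) were *Sp140*, *Slc7a7*, *Tlr2*, *Pck2* and *Klhl29*, at distances of 0.03 to 0.04. Likeness was measured over 2 comparisons that share their LacZ libraries, and it is a description only. *Sp140*, the nearest, had log2 fold changes of -1.31 and -0.73.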

How the data were processed

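The 9 libraries of NRVM RNA (3 per group) were sequenced as 75-bp single-end stranded reads. According to the methods and the submitters' processing notes, the authors checked reads with FastQC 0.11.4, aligned them to Rnor 6.0 with HISAT2 2.0.4, removed duplicates with SAMtools 0.1.18, counted with featureCounts 1.6.0 and compared groups with edgeR 3.20.5. Whether counting used strand is not given in the sources used here. The signal the authors deposited is, for each pair of groups and gene symbol, the group mean of counts divided by size factors. The tables also hold the authors' fold changes and p-values, which were not used, and 0 unused columns of samples. The layout of the deposited values is not that of edgeR, and the tool that wrote them is not known.

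A mean of 3 libraries is a sum of whole reads times fixed steps, read from the lowest recurring means. Each group occurs in 2 tables with other steps, which left 1 solution of whole reads for 14656 of 14657 genes in LacZ, 14579 of 14579 in Nrf1 and 14746 of 14746 in Nrf2 samples, with a relative deviation of at most 1.45e-09 from the deposited means. These reads are reconstructed and carry no sample numbers. In each table with LacZ, 26 symbols turned into dates were left out.

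Per pair of groups, limma 3.58.1 (trend, R 4.3.3) was fitted to log2(reads over the authors' size factor + 0.5) for genes with a mean of at least 10. The added 0.5 draws fold changes of low genes toward 0. Fitted values can still exceed the ratio of group means, as for *Tap2* with Nrf1 (-2.22 fitted, -2.17 as the log2 ratio of means). The edgeR package was not applied to the reconstructed reads. Fits and the solving of reads were tested on simulated data. The test of the solving left out the most highly expressed genes, *B2m* among them. In the test of the fits every gene was given the same added spread between libraries, unlike the measured genes.

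The members and lists were chosen with earlier results of these data known. Named beside the 10 members were all genes of lists of up to 5, the 3 of longer lists with the largest ratio of Nrf1 to LacZ at a mean of 100 or more, *Irf1* and the 5 nearest genes. A gene of the list of regulators is not reported here and was left out of its counts. Alternatives were other fold cutoffs, filters, pseudocounts, scalings, voom, all 9 libraries in 1 fit and leaving out each library.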

Additional observations from a re-analysis of the deposited data

How the results depend on the processing

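Of the 10 members, 7 were called lower with Nrf1 and 7 with Nrf2, and 3 higher in Nrf2 over Nrf1. Leaving out each library gave 7 to 8 genes lower with Nrf1, 6 to 7 lower with Nrf2 and 3 to 4 higher in Nrf2 over Nrf1. The shares over all genes were then 15.9% to 16.5%, 8.57% to 9.48% and 10.1% to 10.7%. A fold cutoff of 2 left 2 genes lower with Nrf2 and 0 higher in Nrf2 over Nrf1. Requiring the adjusted p only gave 6 higher and 1 lower in Nrf2 over Nrf1, and a mean of at least 100 left 1 higher, because fewer genes were tested. Over all genes, the adjusted p alone called 3617 genes lower and 3887 higher with Nrf1 (1852 and 1261 at both cutoffs), 2961 and 3250 with Nrf2 (1064 and 1001) and 3409 and 3228 in Nrf2 over Nrf1 (518 and 1210). At a fold cutoff of 2 the counts were 1005 and 436, 424 and 466, and 128 and 582. A mean of at least 100 left 892 and 925, 510 and 603, and 338 and 556. Scaling by library totals gave 1355 lower and 807 higher with Nrf2.

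Among the 10 members, signs turned for values near 0. *Psme1* in Nrf2 over LacZ was -0.0368 with library totals and with all 9 libraries. In Nrf2 over Nrf1, *Psmb10* ran from -0.1399 to 0.0010 over libraries left out, the latter without the shallowest Nrf1 library. *Psme2* was -0.4050 without the shallowest Nrf1 library, 0.0670 and 0.1729 without the middle and deepest Nrf1 libraries, and 0.0197 and 0.0512 without the shallowest and middle Nrf2 libraries. In the lists of related genes and markers, signs turned for genes that were not called, among them *Col1a2* in Nrf2 over LacZ (from -0.49 to 0.05 without the middle LacZ library and 0.12 without the shallowest Nrf2 library), *Emcn* in Nrf2 over Nrf1 (from -0.41 to 0.02 without the middle Nrf2 library) and *Mr1* in Nrf1 over LacZ (from -0.29 to 0.05 without the deepest Nrf1 library). The cause was not tested. No paired analysis was possible because the reconstructed reads carry no replicate numbers. Depth limited *Tap2*, with 2 to 22 reads per library, and *Fn1* reads had several solutions and were left out.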

Other observations

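Genes of class II antigen presentation, which serves a narrower set of cells than class I, were mostly too low to test in these cultures. Of 13 with reads, 5 were tested with Nrf1, of which 3 fell and 0 rose, and 4 with Nrf2, of which 3 fell and 0 rose. *Ctss*, the protease cathepsin S, was read at 28.3, 42.7 and 28.6 CPM in LacZ, 9.26, 12.97 and 9.54 in Nrf1 and 15.2, 12.2 and 13.9 in Nrf2 libraries. Its log2 fold changes were -1.57 with Nrf1 (SE 0.15, adjusted p = 2.38e-07) and -1.16 with Nrf2 (SE 0.14, adjusted p = 6.77e-06), and the LacZ library of middle depth was again the highest. *Ifi30*, a lysosomal thiol reductase, was at -0.37 (adjusted p = 1.10e-05) and -0.09 (adjusted p = 0.188), under the fold cutoff with each factor. *Cd74*, the invariant chain, and *RT1-Da*, a class II chain, named after their values were seen, fell by 1.48 and 1.21 on the log2 scale with Nrf1 and by 1.78 and 1.24 with Nrf2. Neither was called in Nrf2 over Nrf1, with log2 fold changes of -0.31 (adjusted p = 0.317) and -0.04 (adjusted p = 0.929). *RT1-Db1*, the remaining class II gene tested with Nrf1, lay on the other side of 0, at 0.74 with Nrf1 (SE 0.35, adjusted p = 0.0706). It was low and variable, at 1.20 ± 0.268 CPM in LacZ, 2.03 ± 0.809 in Nrf1 and 0.850 ± 0.680 in Nrf2 samples (SD, n = 3). It was the 1 class II gene called in Nrf2 over Nrf1 (-1.44, SE 0.48, adjusted p = 0.0157, lower), and this call was lost without the shallowest Nrf1 library (adjusted p = 0.0872) or the middle Nrf2 library (adjusted p = 0.0892). Without the deepest Nrf1 library it was called higher with Nrf1 (0.98, adjusted p = 0.0355).

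Among class I heavy chains, *RT1-A2*, named after its values were seen, differed between the factors. It fell with Nrf1 (log2 fold change -1.30, SE 0.08, adjusted p = 7.48e-10) and was at 0.32 with Nrf2 (SE 0.07, adjusted p = 0.00137, under the fold cutoff), with Nrf2 above Nrf1 by 1.61 (SE 0.06, adjusted p = 1.66e-13). *B2m*, its partner chain, fell with each factor.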
